A study of Naumovozyma castellii with 10 samples.

Results

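The subtelomeric features of the budding yeast Naumovozyma castellii are the mRNA and long non-coding RNA (lncRNA) annotations near the ends of its 10 chromosomes. A feature was a member if its start lay within 20 kb of the lowest annotated start of its chromosome, or its stop within 20 kb of the highest annotated stop. Apart from 6 features left out by name (below), position alone chose the members, and no small RNA value entered the position rule. The set holds 330 of the 8047 mRNAs and lncRNAs, namely 176 of 5600 mRNAs and 154 of 2447 lncRNAs. They are spread over 20 chromosome ends with 12 to 22 members each. By class the lncRNAs comprised 66 XUTs, which accumulate when the Xrn1 exonuclease is absent, 87 cryptic unstable transcripts (CUTs) and 1 stable unannotated transcript (SUT). A cluster of 6 overlapping features at the left end of chromosome 9 was left out (XUT0919, XUT0920, XUT0921, CUT1198, NCAS_0I00100 and NCAS_0I00110).

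Small RNAs below 80 nt were sequenced in 10 libraries, in 5 groups of 2 biological replicates per the labels. The groups were dcr1 upf1 (dcr1 upf1::kanMX6), dcr1 CHX (dcr1, with cycloheximide), WT CHX (wild type with cycloheximide), upf1 (upf1::kanMX6) and WT. All strains share MATalpha ura3-1 ho and were cultured at 25 °C in YPD until the OD600 was 0.5. Cycloheximide (CHX) was added at 100 µg/mL for 15 min. Each genotype is represented by a single strain name, and there was no dcr1 group without CHX, so each Dicer comparison was made within its own background (no UPF1, or CHX). The RNA came from bulk cultures, so a change in all cells and a change in some of them cannot be told apart. The pairs of values given for a group below are its replicates 1 and 2.

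N. castellii is a budding yeast that kept RNA interference, in which Dicer cuts double-stranded RNA into small interfering RNAs that are loaded onto Argonaute. Upf1 is the helicase at the core of nonsense-mediated decay (NMD), a translation-dependent pathway that removes RNAs with early stop codons and many cytoplasmic lncRNAs, and CHX blocks translation elongation and with it NMD. Subtelomeres of budding yeasts are gene-poor, fast-evolving regions with gene families, silenced loci and repeats, and in Saccharomyces cerevisiae they hold the silent mating-type cassettes and many genes for the use of unusual nutrients.

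The subtelomeric set was rich in lncRNAs and in genes without a name. LncRNAs made up 46.7% of the members, against 29.7% of the other mRNAs and lncRNAs. A gene symbol was listed for 89 of the 176 member mRNAs (50.6%), against 81.0% of the other mRNAs. An antisense lncRNA overlapped 46 member mRNAs (26.1%), against 22.9% of the others. Transcription ran toward the chromosome end for 106 member mRNAs and away from it for 70, while 81 lncRNAs ran toward the end and 73 away. Members were 153 to 7356 nt long (median 876 nt), and 67 of them shared a same-strand interval with another feature, such as XUT and CUT annotations of one transcript, so these values are not independent.

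Depth over all features was 129559 to 148330 reads in the Dicer-deficient libraries and 3169072 to 6904640 in the Dicer-proficient ones, and members held 1929 to 2773 and 44945 to 366448 of these reads. The deposited values are read densities per nucleotide, scaled by the authors to S. pombe spike-in small RNAs. NAM7, the UPF1 gene itself, had 0 reads in all 4 libraries of the strains that lack it, and 13 and 3 in WT. No read fell on 35 members in any library (13 mRNAs and 22 lncRNAs, 10.6% of members against 0.959% of the other mRNAs and lncRNAs), and 31 of these 35 lay among the 106 members within 5 kb of an end. How reads that match several places were counted is not given in the sources used here, so its part in these zeros was not tested. A filter on low density left 261 members to be tested in the 6 Dicer-proficient libraries and 257 in all 10 libraries.

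Small RNA output of the chromosome ends was far higher in upf1 than in WT. Summed density over member lncRNAs was 106 and 107 in upf1 and 13.5 and 13.0 in WT, a ratio of 8.03 ± 0.167 (SD over pairs of replicates, n = 2 each). Over the other lncRNAs the same ratio was 2.26 ± 0.0386. Member mRNAs summed to 71.3 and 71.6 in upf1, against 12.0 and 11.9 in WT, a ratio of 5.98 ± 0.0326, where the other mRNAs reached 2.40 ± 0.120. The replicates of the 2 groups did not overlap in any of these sums, and no p-value is given for sums over the members. Scaled to the median mRNA of each library, the ratios of upf1 to WT were 3.40 for member lncRNAs and 2.53 for member mRNAs. On the deposited scale members held 4.94% and 4.91% of all mRNA and lncRNA density in upf1, and 1.65% and 1.69% in WT. Among the 500 mRNAs and lncRNAs with the highest mean density, 50 were members in upf1 and 22 in WT. The ends of chromosome 8 held 55.4% and 55.05% of member density in upf1 and 71.4% and 71.7% in WT. Without those ends (an alternative chosen after seeing the data) the ratio over all members was 11.1 ± 0.231, against 7.06 ± 0.0948 with them.

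Feature by feature, 187 of the 261 tested members were called higher in upf1 than in WT and 0 lower (limma on log2 density plus a pseudocount of 0.00148, adjusted p below 0.05 over all 7872 features tested), where 57.8% of all features were called higher and 0.635% lower. Of the tested member lncRNAs, 101 of 121 rose (55 of 63 XUTs and 46 of 58 CUTs), against 70.4% of all lncRNAs, and of the tested member mRNAs 86 of 140 rose, against 54.7% of all mRNAs. The median log2 difference was 3.26 for member lncRNAs and 1.83 for all lncRNAs, and 1.58 for member mRNAs and 1.06 for all mRNAs. A member can pass the filter through upf1 alone. Of the 222 tested members whose WT mean itself reached the pseudocount, 160 rose (median 2.23), where 60.8% of all such features rose (median 1.22). With no filter 195 of all 330 members were called higher (59.1%), against 51.7% of all 8407 features. The spike-in sets the zero of this scale. When each library was instead scaled to its own median mRNA, the median of all features was -0.03 in place of 1.19, that of the members was 1.07, and 138 members were called higher and 19 lower, against 26.9% and 13.0% of all features.

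All 20 chromosome ends had a higher summed density in upf1 than in WT, in both replicates, with ratios from 3.12 to 60.5 (median 18.1). The left end of chromosome 8 changed most, with 36.7 and 36.4 in upf1 and 0.614 and 0.593 in WT (ratio 60.5 ± 1.21). It holds 16 lncRNAs and 5 mRNAs, none with a gene symbol. The right end of chromosome 4 came next, with 2.21 and 2.25 in upf1 and 0.0423 and 0.0376 in WT (55.8 ± 3.91). The right ends of chromosomes 3, 10 and 6 and the left ends of chromosomes 1, 6 and 4 followed at 33.0 to 24.8, then the left ends of chromosomes 7 (21.5), 5 (18.3) and 10 (17.9) and the right ends of chromosomes 5 (16.1) and 9 (10.02). Of the 19 pairs of neighbours in this order, 11 had intervals of 1 SD that overlapped, the first pair included.

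The other 7 ends had ratios below 5. They were the left ends of chromosomes 3 (4.96 ± 0.395), 2 (4.10) and 9 (3.12) and the right ends of chromosomes 7 (4.70), 1 (4.38), 2 (4.10) and 8 (3.54 ± 0.0370). The right end of chromosome 8 was the densest of all ends in both groups, with 61.7 and 61.9 in upf1 and 17.6 and 17.3 in WT. Named genes were more common at these 7 ends (49 of 74 mRNAs, 66.2%) than at the 13 ends with ratios of 10 or more (40 of 102, 39.2%), a split made after the ratios were seen and not tested.

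**Figure D1:**
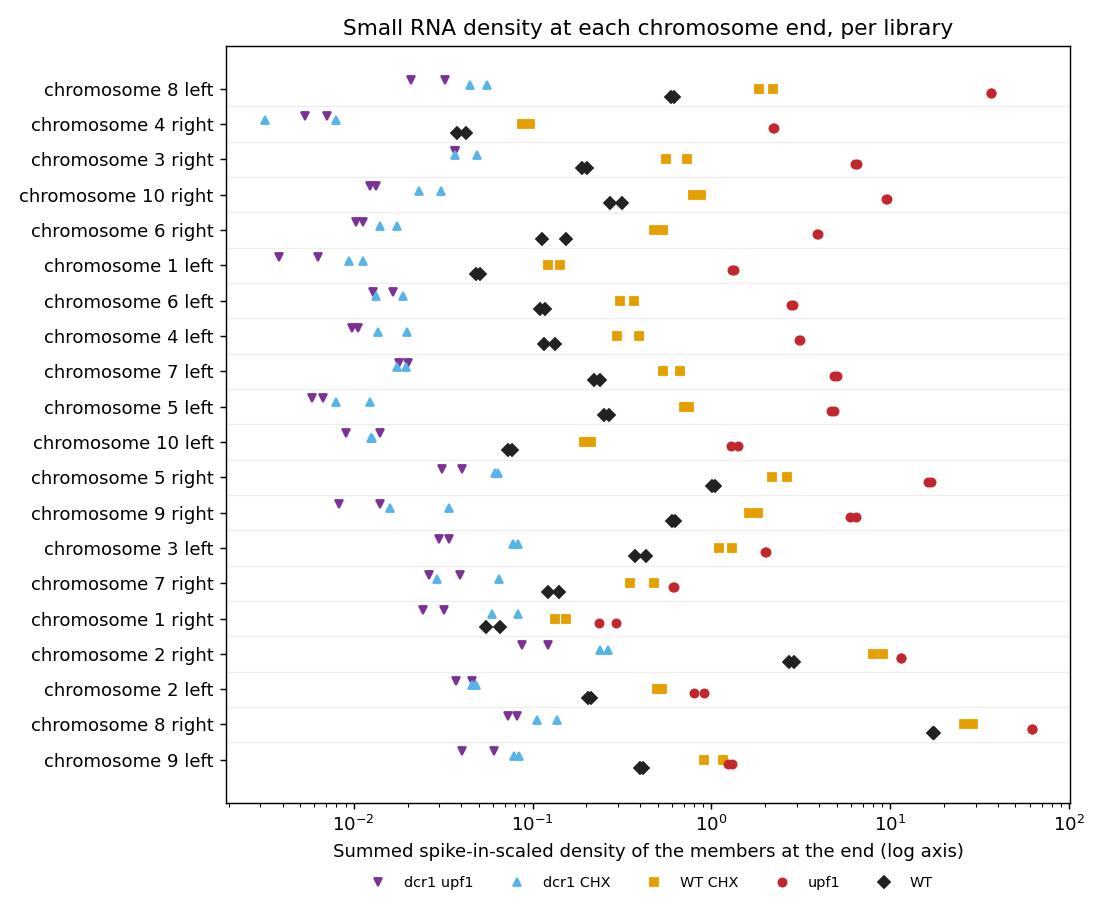
Summed small RNA density of the members of each of the 20 chromosome ends (log axis), with 1 point per library and groups in the order of the legend from the top of each row; ends are ordered by the ratio of upf1 to WT. Both upf1 libraries lie right of both WT libraries at every end, by 60.5-fold on the left of chromosome 8 and by 3.12-fold on the left of chromosome 9.

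The densest members lay in a sense and antisense pair of transcripts at the right end of chromosome 8. XUT0917 (chromosome 8, 698029 to 699148, minus strand, in the coordinates of the deposited file) runs opposite to the mRNAs NCAS_0H03670 (chromosome 8, 698834 to 699265, plus strand) and NCAS_0H03660 (chromosome 8, 697109 to 698785, plus strand), covering 72.9% and 45.1% of their length. XUT0917 had densities of 27.3 and 25.9 in upf1 and 8.07 and 7.78 in WT, a log2 difference of 1.75 (SE 0.10, limma adjusted p = 7.15e-06). NCAS_0H03670 had 17.4 and 18.4 in upf1 and 4.83 and 4.91 in WT, with 1.88 (SE 0.10, limma adjusted p = 5.02e-06). Annotations on both strands of the locus were therefore already dense in WT and rose by a similar factor. Whether reads were assigned by strand is not stated, so these overlapping annotations may share reads. NCAS_0H03660 had 14.8 and 15.5 in upf1 and 4.34 and 4.25 in WT, with 1.82 (SE 0.10, limma adjusted p = 6.06e-06). GPX1, a glutathione peroxidase in S. cerevisiae, lies further inward on the same arm and rose less, with 0.678 and 0.608 in upf1 and 0.283 and 0.277 in WT (1.19, SE 0.12, limma adjusted p = 0.000140; chosen after its values were seen).

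At the left end of chromosome 8 a pair of overlapping annotations on opposite strands was sparse in WT and dense in upf1. These too may share reads, since strand assignment is not stated. NCAS_0H00110 (chromosome 8, 5562 to 6614, minus strand) had 12.5 and 11.7 in upf1 and 0.170 and 0.161 in WT, a log2 difference of 6.18 (SE 0.13, limma adjusted p = 5.67e-07). CUT1108 (chromosome 8, 4780 to 7657, plus strand), which covers all of it on the other strand, had 6.69 and 6.80 in upf1 and 0.0876 and 0.0824 in WT, with 6.29 (SE 0.13, limma adjusted p = 5.67e-07). The longer XUT0842 contains CUT1108, so its values are not independent of it (4.07 and 4.10 in upf1, 0.0517 and 0.0491 in WT). Further along XUT0842, and opposite to it, CUT1109 had 2.43 and 2.67 in upf1 and 0.0225 and 0.0136 in WT, with 7.07 (SE 0.26, limma adjusted p = 1.27e-06). In each of these members the 2 upf1 libraries lay close together and far above both WT libraries.

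The largest differences between upf1 and WT included members with few WT reads. NCAS_0J00110 (chromosome 10, 2167 to 3219, minus strand) had 0.553 and 0.624 in upf1 and 0.00138 and 0.00271 in WT (3 and 5 reads), a log2 difference of 7.41 (SE 0.33, limma adjusted p = 2.69e-06). The lncRNA on its other strand, XUT0972, had 0.177 and 0.179 in upf1 and 0.00120 and 0.00106 in WT. CUT0912 (chromosome 6, 3941 to 4686, plus strand), with no antisense feature, had 0.661 and 0.646 in upf1 and 0.00390 and 0.00306 in WT, with 7.05 (SE 0.19, limma adjusted p = 6.43e-07). Neither pair of replicates overlapped the other group. CUT0680 and XUT0532, which are annotations of largely the same transcript at the left end of chromosome 4, rose by 6.36 and 6.39 on the log2 scale (limma adjusted p = 8.34e-07 for both). On the right of chromosome 10, XUT1021 ends 16 nt from the outermost annotated position and had 1.34 and 1.38 in upf1 and 0.0170 and 0.0169 in WT (6.21, SE 0.15, limma adjusted p = 5.67e-07). On the right of chromosome 5, CUT0908 and XUT0685 again mark 1 transcript (chromosome 5, 827105 to 829283, plus strand for the CUT). CUT0908 had 7.89 and 8.21 in upf1 and 0.271 and 0.271 in WT, with 4.88 (SE 0.13, limma adjusted p = 6.43e-07).

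The densest member of each remaining end was called higher in upf1 as well. It was picked by mean density over the 6 Dicer-proficient libraries, upf1 included, so the choice favours members that are dense in upf1. Among mRNAs, NCAS_0C05990 rose by 5.43, NCAS_0F04090 by 5.52, NCAS_0A00120 by 5.59, NCAS_0A15330 by 3.20 and NCAS_0C00190 by 2.83 on the log2 scale. Among lncRNAs, XUT0759 rose by 5.99, XUT0605 by 5.20, XUT0688 by 4.62, CUT1105 by 3.86, CUT1277 by 3.24, XUT0259 by 2.17 and XUT0923 by 1.54. All 12 passed the test, with limma adjusted p-values up to 0.00115. The call for XUT0923 was lost when libraries were scaled to the median mRNA. XUT0923 overlaps the start of GCN4, the transcriptional activator of amino acid synthesis, on the other strand. GCN4 had 0.152 and 0.160 in upf1 and 0.0314 and 0.0405 in WT (2.08, SE 0.20, limma adjusted p = 0.000101; chosen after its values were seen).

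The right end of chromosome 4 carries the allantoin degradation cluster, whose products in S. cerevisiae turn allantoin into a nitrogen source. These genes were picked after their values were seen. DAL7, a malate synthase of that pathway (chromosome 4, 939854 to 941530, plus strand), had 1.56 and 1.56 in upf1, 70.0% of the member density of that end, and 0.0199 and 0.0191 in WT, with 6.22 (SE 0.15, limma adjusted p = 5.67e-07). Its neighbour DCG1 had 0.274 and 0.312 in upf1 and 0.0105 and 0.00387 in WT (5.20, SE 0.40, limma adjusted p = 3.05e-05). DAL1, the allantoinase, had 0.0956 and 0.0863 in upf1 and 0.00326 and 0.00230 in WT (4.45, SE 0.42, limma adjusted p = 8.92e-05). DAL4, the allantoin permease, lies opposite XUT0603 and had 0.0891 and 0.0947 in upf1 and 0.000765 and 0.000601 in WT (5.43, SE 0.39, limma adjusted p = 2.15e-05). DAL2, the allantoicase, had 24 and 14 reads in upf1 and 0 in both WT libraries, and DAL3, the ureidoglycolate lyase, had 0 and 3 reads in upf1, 0 in WT and was not tested. Within the cluster, density in upf1 thus ran from DAL7 down to a level near 0. DAL5, the allantoate permease, is at another end, the right of chromosome 6, and had 0.193 and 0.172 in upf1 and 0.00288 and 0.00272 in WT (5.43, SE 0.24, limma adjusted p = 2.42e-06). Genes looked up with these that are not members varied as well. DUR3 on chromosome 1 rose by 6.54 and DUR12 on chromosome 2 by 3.56 (limma adjusted p = 2.03e-06 and 5.33e-05). DAL81 on chromosome 3 was not called (0.18, limma adjusted p = 0.767), and DAL80 had a density of 0 in every library. A large rise in upf1 was thus not confined to the chromosome ends. In WT CHX, DAL7 had 0.0394 and 0.0396, so the upf1 level was not approached, and its difference from WT (0.96) became -0.79 when libraries were scaled to the median mRNA.

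The right end of chromosome 2 holds the mating-type cassette HML, silent in S. cerevisiae, and CHA1, the catabolic serine and threonine deaminase. HMLALPHA1 (chromosome 2, 1755595 to 1756047, plus strand) had 1.02 and 0.889 in WT CHX, 1.66 and 1.64 in upf1 and 0.379 and 0.370 in WT, so upf1 was highest and no groups overlapped on the spike-in scale. CUT0558, on the other strand and covering 59.4% of it, had 2.23 and 1.95 in WT CHX, 3.95 and 3.81 in upf1 and 0.763 and 0.774 in WT, with 2.33 (SE 0.11, limma adjusted p = 3.29e-06) for upf1 against WT. Its difference between WT CHX and WT was 1.44, and -0.31 when libraries were scaled to the median mRNA. HMLALPHA2 was sparse, with 0.0647 and 0.0516 in WT CHX, 0.0184 and 0.0187 in upf1 and 0.0141 and 0.00555 in WT. Its difference between upf1 and WT did not pass the test (0.93, SE 0.39, limma adjusted p = 0.0785), and that between WT CHX and WT did (2.50, SE 0.39, limma adjusted p = 0.00121), though not when libraries were scaled to the median mRNA (0.75). The strains are MATalpha, and reads of an active copy of the same genes cannot be told apart from reads of HML here. CHA1 (chromosome 2, 1751219 to 1752322, plus strand; chosen after its values were seen) was higher in WT CHX than in upf1, with 0.956 and 0.824 in WT CHX, 0.501 and 0.516 in upf1 and 0.177 and 0.153 in WT (0.80, SE 0.14, limma adjusted p = 0.00368 for WT CHX against upf1). CUT0555, inside CHA1 on the other strand, had 1.83 and 1.59 in WT CHX, 1.06 and 1.09 in upf1 and 0.309 and 0.359 in WT, the same order (0.67, SE 0.13, limma adjusted p = 0.00624 for WT CHX against upf1).

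**Figure D2:**
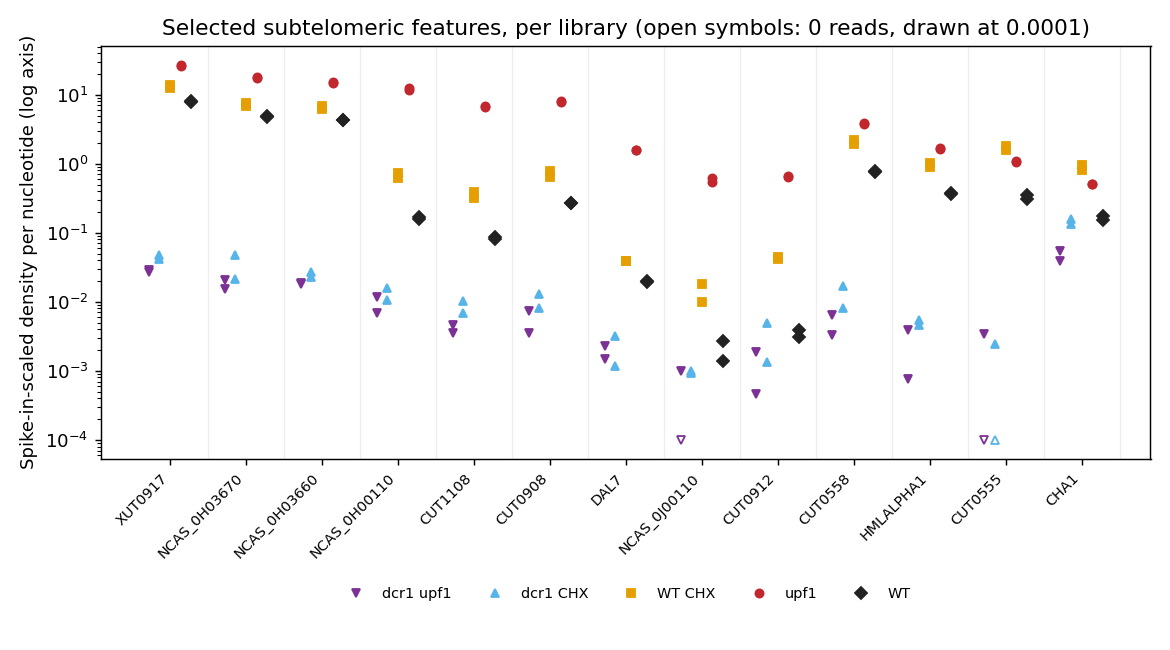
Density per nucleotide (log axis) of 13 subtelomeric features in each library, groups in the order of the legend from left to right; open symbols at 0.0001 mark libraries with 0 reads. XUT0917 is dense in WT, CHX-treated WT and upf1, while DAL7 and NCAS_0J00110 are far denser in upf1 than in the other groups, and CHA1 keeps more of its density in dcr1 CHX than the other features do.

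Among tested mRNAs the median difference between upf1 and WT was largest nearest the ends, while among tested lncRNAs it was similar up to 15 kb. These medians were not tested. For tested mRNAs the median log2 difference was 2.67 within 5 kb of the end, 1.67 at 5 to 10 kb, 1.18 at 10 to 15 kb and 1.35 at 15 to 20 kb, against 1.17 at 20 to 30 kb, 1.08 at 30 to 40 kb and 1.04 further in. For tested lncRNAs it was 3.49, 3.24, 3.52 and 2.59 in the same 4 windows, against 1.59 at 20 to 30 kb, 2.38 at 30 to 40 kb and 1.78 further in. Only 25 of 46 mRNAs and 34 of 60 lncRNAs within 5 kb could be tested, and 11 and 20 of them had no read. A feature can pass the filter through upf1 alone, so the order of the windows holds for tested features only. Over all mRNAs, tested or not, median density within 5 kb was 0.00460 in upf1 and 0.00177 in WT. At 5 to 10 kb it was 0.0213 in upf1 and 0.00531 in WT, and at 10 to 15 kb 0.0178 and 0.00487. For WT CHX against WT the mRNA medians lay between 1.21 and 1.36 in the 4 windows, against 1.59 beyond 40 kb. The lncRNA medians were 1.56, 1.13, 1.16 and 0.81, so the outermost window was highest there too, against 1.40 beyond 40 kb. Just inside the 20 kb limit, mean densities were 0.0261 in upf1 and 0.0249 in WT for FAR3, 0.00438 in upf1 and 0 in WT for CUT0798, 0.0365 in upf1 and 0.0422 in WT for CUT1199, and 0.00122 in upf1 and 0.000570 in WT for IML1. Just outside it, they were 0.206 in upf1 and 0.0405 in WT for SCW4, 0.0545 in upf1 and 0.00771 in WT for NCAS_0J00180, 0.0165 in upf1 and 0.00273 in WT for FZF1, and 0.00747 in upf1 and 0.00654 in WT for SPB1.

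**Figure D3:**
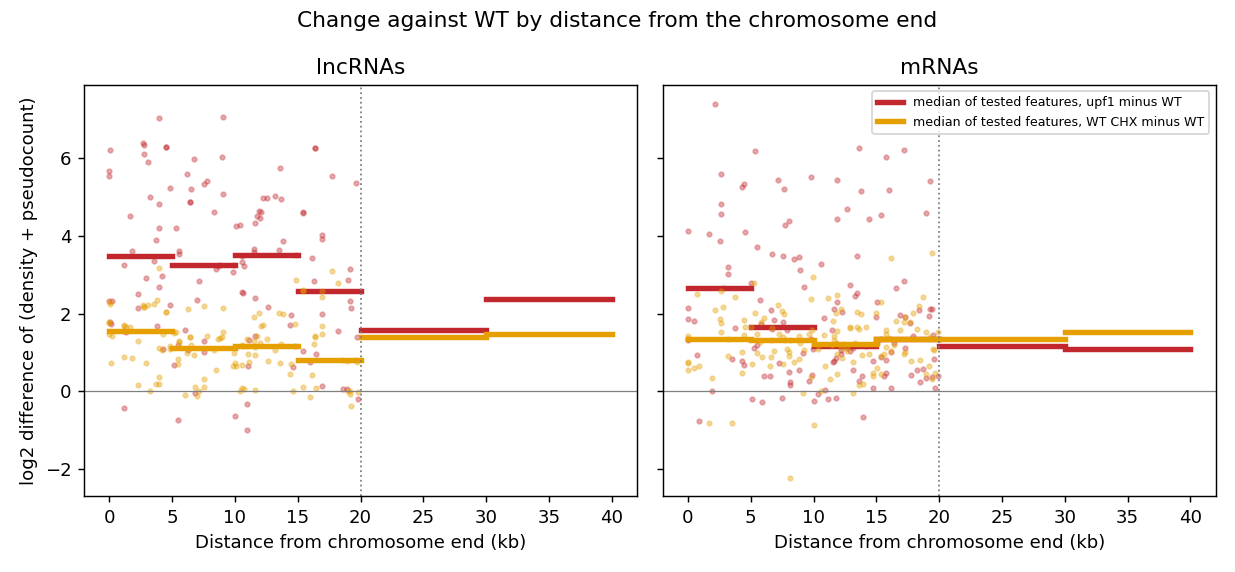
Log2 difference against WT by distance of the feature from the outermost annotated position of its chromosome end (kb), for lncRNAs (left) and mRNAs (right); dots are tested members, bars are medians of tested features in each window, and the dotted line marks 20 kb. The upf1 medians of lncRNAs lie at 2.59 to 3.52 within 20 kb and those of mRNAs at 2.67 in the outermost window and 1.18 to 1.67 in the next 3, while the WT CHX medians stay between 0.81 and 1.56.

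In the 62 pairs of a member mRNA and an antisense lncRNA (46 mRNAs and 59 lncRNAs), both partners were called higher in upf1 than in WT in 42 pairs (67.7%) and both in WT CHX than in WT in 37 (59.7%). Over all 1658 such pairs of the annotation the shares were 64.05% and 71.05%, so the member pairs stood near or below them. Of the tested member mRNAs with an antisense lncRNA, 33 of 43 rose in upf1 (median 2.09), where 70.6% of all such mRNAs rose (median 1.55). Of those without one, 53 of 97 rose (median 1.203), where 49.9% of all such mRNAs rose (median 0.94). Members without an antisense lncRNA also summed higher in upf1, with 12.7 and 12.4 in upf1 and 1.39 and 1.27 in WT (ratio 9.44 ± 0.507). By orientation, the median log2 difference was 3.19 for lncRNAs that run toward the end and 3.43 for those that run away from it, and 1.89 and 1.14 for mRNAs. Whether reads were assigned by strand is not stated. In dcr1 CHX, CHA1 had 280 and 349 reads over its whole length and CUT0555, which covers 18.5% of it on the other strand, had 0 and 1.

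On the spike-in scale, CHX for 15 min raised small RNAs at the chromosome ends less than loss of UPF1 did. Summed density of member lncRNAs was 29.4 and 25.8 in WT CHX and 13.5 and 13.0 in WT (ratio 2.08 ± 0.161), and that of member mRNAs 23.6 and 20.7 in WT CHX and 12.0 and 11.9 in WT (1.85 ± 0.141). Without the chromosome 8 ends these ratios were 2.69 for member lncRNAs and 3.20 for member mRNAs. The ratio of WT CHX to WT was 1.48 ± 0.103 over the other lncRNAs and 1.69 ± 0.148 over the other mRNAs. Both WT CHX libraries exceeded both WT libraries at all 20 ends, by 1.57-fold at the right end of chromosome 8 to 3.81-fold at the right end of chromosome 6 (median 2.77). Of 261 tested members, 182 were called higher and 1 lower, against 77.1% and 0.165% of all features, and the median log2 difference was 1.25, against 1.50 for all features. Of the tested member mRNAs 101 of 140 rose, against 81.4% of all mRNAs, and of the tested member lncRNAs 81 of 121, against 73.1% of all lncRNAs. So the share of members called higher was below that of all features here, and among features whose WT mean reached the pseudocount it was 76.6% (170 of 222 members) against 78.7%. The member called lower, NCAS_0J00130, had 0 reads in both WT CHX libraries and 2 and 2 in WT (named after its values were seen). This comparison depends on the spike-in. Scaled to the median mRNA, the median of all features was -0.25 and that of the members -0.50, 14 members were called higher and 65 lower, against 9.17% and 15.4% of all features, and the sums of member lncRNAs and mRNAs were 0.614 and 0.547 of WT.

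The largest rises with CHX were PHO90, a phosphate transporter, at 3.55 (SE 0.26, limma adjusted p = 8.07e-05), and NCAS_0B09050, at 3.44 (SE 0.28, limma adjusted p = 0.000102). PHO90 had 0.0600 and 0.0508 in WT CHX and 0.00300 and 0.00374 in WT, and NCAS_0B09050 had 0.0590 and 0.0565 in WT CHX and 0.00337 and 0.00463 in WT. The lncRNAs CUT0912, XUT0967 and CUT0795 followed with 3.17, 3.11 and 2.87, and limma adjusted p-values up to 0.000234. In these 5 both WT CHX libraries exceeded both WT libraries, and each kept a positive difference when libraries were scaled to the median mRNA. The upf1 and CHX comparisons share the WT libraries.

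Set directly against each other, WT CHX was lower than upf1 over most of the set. Of 261 tested members, 28 were called higher in WT CHX and 145 lower, against 24.2% and 21.8% of all features. The median log2 difference was -1.18 for members and 0.24 for all features, and -2.32 for member lncRNAs, of which 7 were called higher and 88 lower (12.4% and 38.5% of all lncRNAs). Of the 140 tested member mRNAs, 21 were called higher and 57 lower (29.3% and 15.6% of all mRNAs). Each of the 20 ends summed lower in WT CHX than in upf1 in both replicates, from 4.13% of the upf1 level at the right end of chromosome 4 to 81.6% at the left end of chromosome 9. A sum need not follow its members. At the right end of chromosome 5, 6 of 11 tested members were called higher in WT CHX and 5 lower, against the shares of all features above. Scaled to the median mRNA the members' split was 10 higher and 161 lower, against 11.6% and 31.9% of all features. The count of 28 higher members was 18, 12, 12 and 16 without upf1 replicate 1, upf1 replicate 2, WT CHX replicate 1 and WT CHX replicate 2.

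Members with the deepest falls were far denser in upf1 than in WT CHX. NCAS_0J00110 had 0.0180 and 0.00988 in WT CHX and 0.553 and 0.624 in upf1 (-5.31, SE 0.33, limma adjusted p = 3.90e-05). XUT0759 had 0.0593 and 0.0907 in WT CHX and 2.46 and 2.56 in upf1 (-5.07, SE 0.21, limma adjusted p = 8.62e-06), and DAL7 and XUT0846 had log2 differences of -5.25 and -5.03. CUT0324, on the left of chromosome 10, had 13 and 14 reads in upf1 and 0 in each of the other 8 libraries, so its fold depends on the pseudocount. In the other direction, 5 members had the largest differences. NCAS_0B09050 had 0.0590 and 0.0565 in WT CHX and 0.0105 and 0.00865 in upf1 (2.43, SE 0.28, limma adjusted p = 0.000643). CUT0562 had 0.0774 and 0.0736 in WT CHX and 0.0225 and 0.00809 in upf1 (2.34, SE 0.43, limma adjusted p = 0.00466). VAC17, which encodes the vacuole-specific Myo2 receptor, HMLALPHA2 and CUT0907 rose by 1.67, 1.57 and 1.50 (limma adjusted p = 0.00484, 0.0164 and 0.0414). The calls of HMLALPHA2 and CUT0907 were lost without single libraries, HMLALPHA2 without any 1 of the 4 and CUT0907 without upf1 replicate 1 or either WT CHX replicate. CUT0907 ranged from 0.69 without upf1 replicate 1 to 2.31 without upf1 replicate 2, and CUT0562 from 1.68 without upf1 replicate 2 to 3.01 without upf1 replicate 1. These 5 were the largest rises among members called higher whose libraries did not overlap and that were above the median density.

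**Figure D4:**
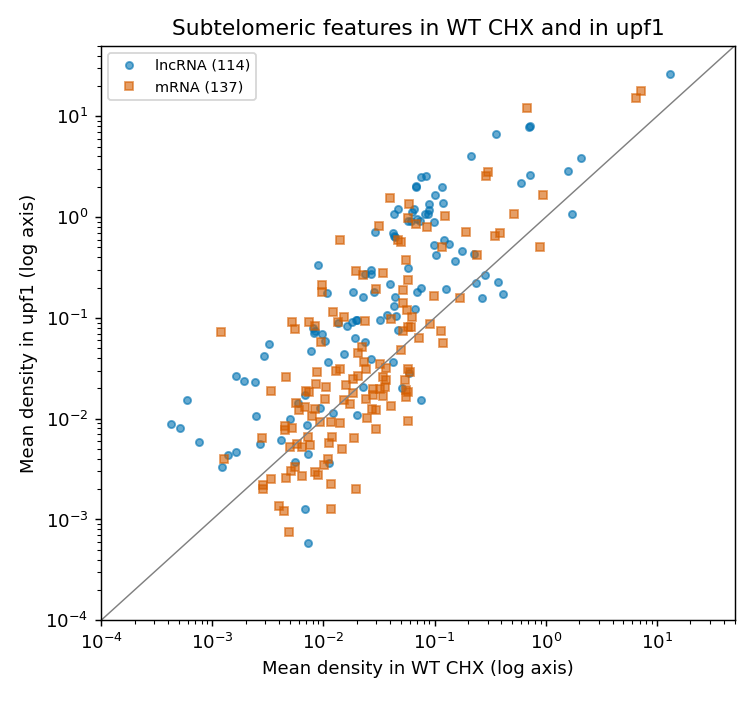
Mean density of tested members in WT CHX (horizontal, log axis) and in upf1 (vertical, log axis), for the 114 lncRNAs and 137 mRNAs with reads in both groups; the line marks equal density. Most lncRNAs lie above the line, as the 88 called lower in WT CHX do, and XUT0917 is the point with the highest density in both groups.

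Nearly all of this small RNA was lost without Dicer on the spike-in scale. Member lncRNAs summed to 0.114 and 0.147 in dcr1 upf1, against 106 and 107 in upf1, which leaves 0.122% ± 0.0177, and to 0.250 and 0.214 in dcr1 CHX, against 29.4 and 25.8 in WT CHX, which leaves 0.841% ± 0.0986 (SD over pairs of replicates). The other lncRNAs kept 0.217% ± 0.0215 and 0.584% ± 0.0940. Member mRNAs kept 0.622% ± 0.0450 in dcr1 upf1 and 3.53% ± 0.340 in dcr1 CHX, where the other mRNAs kept 1.89% ± 0.0641 and 3.98% ± 0.340. Without the chromosome 8 ends, member mRNAs kept 1.83% in dcr1 upf1, close to the other mRNAs, and 9.86% in dcr1 CHX, above them. Scaled to the median mRNA, member lncRNAs kept 0.994% in dcr1 upf1 and 6.64% in dcr1 CHX, and member mRNAs 5.06% and 27.7%. In dcr1 upf1, 231 of 257 tested members were called lower than in upf1 and 0 higher, against 83.9% and 0.286% of all features (median log2 difference -4.66 for members, -3.11 for all features). In dcr1 CHX, 217 of 257 were called lower than in WT CHX and 0 higher, against 87.2% and 0.61% of all features (medians -3.08 and -3.05). Of the tested member lncRNAs, 113 of 118 fell in dcr1 upf1 (93.1% of all lncRNAs) and 99 of 118 in dcr1 CHX (91.9%). Of the tested member mRNAs, 118 of 139 fell in dcr1 upf1 (83.5% of all mRNAs) and 118 of 139 in dcr1 CHX (89.3%). When libraries were scaled to the median mRNA, the members' splits were 50 higher and 144 lower in dcr1 upf1 (32.2% and 39.0% of all features) and 78 higher and 93 lower in dcr1 CHX (26.7% and 34.0%). At all 20 ends both dcr1 upf1 libraries lay below both WT libraries, and at 19 of 20 both dcr1 CHX libraries did.

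The losses named here are the deepest among called members at or above the median density whose libraries did not overlap. The density with Dicer and the pseudocount bound the size of a fall, so only dense members can show the deepest ones. CUT1108 had 0.00352 and 0.00460 in dcr1 upf1 and 6.69 and 6.80 in upf1 (-10.26, SE 0.23, limma adjusted p = 1.32e-09), and CUT0908, XUT0685, NCAS_0H00110 and XUT0842 had log2 differences of -10.24, -10.24, -10.15 and -10.12. XUT0917 had 0.0482 and 0.0415 in dcr1 CHX and 13.8 and 12.4 in WT CHX (-8.14, SE 0.17, limma adjusted p = 3.89e-09). XUT0917 was also the densest member in WT CHX. CUT0555 had 0 and 0.00242 in dcr1 CHX and 1.83 and 1.59 in WT CHX (-9.48, SE 0.56, limma adjusted p = 2.87e-07), and NCAS_0H03660, NCAS_0H03670 and XUT0923 had log2 differences of -7.95, -7.73 and -8.11.

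Some member mRNAs kept reads without Dicer, at about the rate of other mRNAs. Of members with at least 100 reads in the Dicer-proficient group, 17 of 56 mRNAs and 0 of 49 lncRNAs kept 10% or more of their density in dcr1 CHX, and 8 of 72 mRNAs and 0 of 76 lncRNAs in dcr1 upf1. For member mRNAs these are 30.4% and 11.1%, where 27.2% and 14.2% of the other mRNAs did so, as did 29 of 824 other lncRNAs in dcr1 CHX and 11 of 999 in dcr1 upf1. The following were chosen after their values were seen. RPM2, the protein subunit of mitochondrial RNase P, had 0.0271 and 0.0326 in dcr1 CHX and 0.0255 and 0.0236 in WT CHX (122% of the WT CHX mean). PRD1, an oligopeptidase, had 0.0258 and 0.0370 in dcr1 CHX and 0.0401 and 0.0323 in WT CHX, and QCR2, a subunit of respiratory complex III, had 0.0232 and 0.0402 in dcr1 CHX and 0.0349 and 0.0366 in WT CHX. In these 3 genes the difference did not pass the test in dcr1 CHX (limma adjusted p = 0.316, 0.475 and 0.487). CHA1 had 0.134 and 0.156 in dcr1 CHX and 0.956 and 0.824 in WT CHX, so 16.3% remained, and CHA1 was the densest member without Dicer in all 4 libraries. By end, the residue was largest at the right of chromosome 1, at 10.7% in dcr1 upf1 and 49.4% in dcr1 CHX, and smallest at the left of chromosome 8 in dcr1 upf1 (0.0728%) and at the right of chromosome 8 in dcr1 CHX (0.444%).

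The Dicer-dependent fall differed between the backgrounds for 131 of 257 members (limma interaction, adjusted p below 0.05). On this scale it was deeper without UPF1 for 127 members and deeper under CHX for 4, against 18.5% and 5.41% of all features, with a median difference of -1.54 for members and -0.22 for all features. The fall was deeper without UPF1 for 80 of 118 member lncRNAs (30.4% of all lncRNAs) and for 47 of 139 member mRNAs (14.1% of all mRNAs). The count was 76 with a pseudocount 10 times smaller. The largest interaction was that of XUT0846, at -6.22 (SE 0.38, limma adjusted p = 4.14e-05), which had 0 and 0 in dcr1 upf1 and 0.378 and 0.293 in upf1, and 0.00136 and 0.00253 in dcr1 CHX and 0.00769 and 0.0100 in WT CHX, where the difference became 1.37 when libraries were scaled to the median mRNA. The 4 members with the deeper fall under CHX were CUT0562, AIM20, FRT1 and XUT0923 (named because they are few). XUT0923 had 0 reads in all 4 Dicer-deficient libraries, so its interaction of 1.26 is its difference between WT CHX and upf1 and no measure of the fall itself. The same holds for 15 of the 127 members, which had 0 reads in both Dicer-deficient groups, and a further 22 had 0 reads in 1 of them, XUT0846 included. Where both Dicer-deficient densities lie below the pseudocount, the interaction also largely follows the difference between WT CHX and upf1. In the 4 windows of 5 kb, median densities of member lncRNAs were 0 to 0.000636 in dcr1 CHX and 0 to 0.000353 in dcr1 upf1, below it. How many of the 127 this covers was not counted.

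Gene families with some subtelomeric members in S. cerevisiae were matched by gene symbol (sugar transport and hydrolysis, adhesins, thiamine, metal uptake, dehydrogenases, COS and DUP). So were lists not defined by position, namely amino acid and drug transport genes, telomere and silencing factors, and RNA decay genes. A single member was found, MUP3, an amino acid permease that is 1 of 21 listed transport genes. MUP3 had 0.00592 and 0.00924 in WT CHX, 0.00493 and 0.00604 in upf1 and 0.00373 and 0.00372 in WT, and passed the test in neither the upf1 nor the CHX comparison with WT (limma adjusted p = 0.363 and 0.0861). Of the 21 transport genes, most of them outside the subtelomeres, 14 rose in upf1 and 19 with CHX, against 54.7% and 81.4% of all mRNAs. The member mRNAs without a symbol could not be assigned to families, since the gene table gives no product descriptions.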

How the data were processed

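Small RNAs were sequenced in 10 libraries, and reads were handled with Trim Galore and Bowtie, per the submitters' processing notes, which name the build ASM294v2 for S. pombe. The authors deposited a read signal (coverage density per nucleotide) for each annotated feature and library, normalized to the S. pombe spike-in, and the 5 deposited group means were not used. Not given in the sources used here are the N. castellii build, strand counting and the handling of reads with several matches. Of 8770 entries, 8407 features remained after synthetic controls and repeated intervals were set aside. The signal gave whole reads when multiplied by feature length and a factor per library (tolerance 0.001). This yields the read counts quoted, whose precision covers counting error only. Densities were tested as log2(density + 0.00148) with limma 3.58.1 in R 4.3.3. As pseudocount served the percentile 10 of non-zero densities per library (median of the 10 libraries), and fold changes of sparse features are understated by it. The 6 Dicer-proficient libraries shared a fit (7872 features), and the Dicer comparisons used all 10 (7704). P-values were Benjamini-Hochberg adjusted over all features tested, with a threshold of 0.05, and the code was tested on simulated data. Named members are the 8 densest, up to 5 largest called rises and falls per comparison with libraries that do not overlap, the densest of each end, list members, and NAM7. Members, lists and tests were chosen with earlier results of these data known. Alternatives covered the pseudocount, filter, scaling, libraries fitted, replicate block, single libraries, voom weights, window, features left out and overlapping annotations.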

Additional observations from a re-analysis of the deposited data

Results flagged for a closer look

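The Dicer-dependent fall of 131 members differed between the background without UPF1 (dcr1 upf1 against upf1) and the background under CHX (dcr1 CHX against WT CHX), by the limma interaction term at an adjusted p below 0.05. It drew attention because the same contrast gave different sizes in the different backgrounds. The fall was deeper without UPF1 for 127 of them. Of these 127, 15 had 0 reads in both Dicer-deficient groups, where the interaction does not measure the fall. Member density with Dicer also differed, with sums of 177.46 and 178.50 in upf1 and 53.0 and 46.5 in WT CHX, and the part of that difference in the interaction was not tested.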

How the results depend on the processing

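Scaling to the median mRNA moved most counts of members. In upf1 against WT it gave 19 lower, and in WT CHX against WT 14 higher and 65 lower. In WT CHX against upf1 it gave 10 higher, in dcr1 upf1 against upf1 50 higher and 144 lower, and in dcr1 CHX against WT CHX 78 higher and 93 lower. It reversed 26 of 189 named calls and ended 24, and no other setting reversed one. In WT CHX against WT the reversed log2 differences were -0.31 for CUT0558, -0.41 for CUT0562, -0.36 for CUT0908, -0.36 for CUT1277, -0.21 for NCAS_0A00120, -0.39 for NCAS_0A15330, -0.79 for DAL7, -1.15 for NCAS_0H03660, -1.19 for NCAS_0H03670, -0.96 for XUT0259, -0.56 for XUT0605, -0.36 for XUT0685, -0.68 for XUT0688, -0.83 for XUT0759, -1.01 for XUT0846 and -1.03 for XUT0917. In upf1 against WT they were -0.21 for NCAS_0B09050 and -0.10 for VAC17. In dcr1 upf1 against upf1 they were 0.30 for CUT0562, 0.23 for HMLALPHA2 and 1.11 for MUP3. In dcr1 CHX against WT CHX they were 2.01 for NCAS_0A15330, 1.84 for NCAS_0B09050, 0.51 for MUP3, 0.37 for NCAS_0J00110 and 1.37 for XUT0846. The cause was not tested.

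A window of 10 kb holds 182 members, fewer by construction. It gave 95 higher in upf1 and 92 higher in WT CHX against WT, 13 higher and 79 lower in WT CHX against upf1, 112 lower in dcr1 upf1, 106 lower in dcr1 CHX and 75 interactions. Tested within 5 kb were 25 mRNAs and 34 lncRNAs, and at 5 to 10 kb 38 and 30 (37 and 28 in the fit to 10 libraries). Of all features, 57.8% were higher in upf1, 77.1% higher in WT CHX against WT, and 24.2% higher and 21.8% lower in WT CHX against upf1. Lower were 83.9% in dcr1 upf1 and 87.2% in dcr1 CHX, and 18.5% and 5.41% had an interaction in either direction. Scaling on tRNA, rRNA and snoRNA gave 1 lower in upf1 against WT, voom weights gave 0 lower in WT CHX against WT, and a pseudocount 10 times smaller gave 76 interactions. Without 1 library, members lower in upf1 against WT numbered 0 to 1, members lower in WT CHX against WT 1 to 2, and members higher in WT CHX against upf1 12 to 18. Named calls kept were 187 of 189 with voom weights, 187 without a filter and 180 with tRNA, rRNA and snoRNA scaling. With the 6 features left out by the rule included, member lncRNAs summed to 9.86 times WT in upf1, against 8.03 without them, and member mRNAs to 6.66, against 5.98. With only the longest of same-strand overlapping members kept, these ratios were 6.68 for lncRNAs and 5.98 for mRNAs. Scaling on tRNA, rRNA and snoRNA gave 6.45 and 4.79. Keeping only the longest moved the lncRNA sum in WT CHX from 25.9% to 29.8% of that in upf1.

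With the replicate number as a block, 184 of 261 tested members were called higher in upf1 against WT and 180 in WT CHX against WT. Without the block these were 187 and 182, where 57.8% and 77.1% of all features were called. All 189 named calls were kept. The labels do not say that numbers pair libraries, and deviations of same-numbered libraries correlated at -0.035 to 0.019 over 5633 features.

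Depth limits the Dicer-deficient libraries, where members held 1929 to 2773 reads in all and many single members 0 to 3. With 2 libraries per group, and WT shared by the upf1 and CHX comparisons, these are not independent of each other.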
